A study of Mus musculus with 9 samples.

Results

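The mitochondrial ribosomal protein genes of mouse, named Mrpl for the large and Mrps for the small subunit, were followed in RNA-seq of 3 embryonic stem (ES) cell lines that differ in Nanog and Esrrb. Members were all genes whose symbol has Mrpl or Mrps and then a number, pseudogenes left out, with at least 200 reads summed over the 9 libraries used. The rule kept 77 genes, 48 Mrpl and 29 Mrps, of 83 such symbols and of 52636 gene IDs in the table. All 77 passed the low-count filter, which left 16198 genes for testing. The member with the fewest reads, Mrps33, had 1689 in all, and Mrpl53, just outside the rule, had 7. The other symbols left out were pseudogenes, Mrpl48-ps with 231 reads, Mrpl23-ps1 with 66, and Mrps36-ps1, Mrps36-ps2 and Mrps36-ps3 with 40, 8 and 0.

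Each line gave 3 libraries. NanogKO:Esrrb:Nanog (line 44JN) and NanogKO:Esrrb (line 44J) carry, by their titles, added Esrrb with or without added Nanog on the Nanog-null background, and NanogKO (line 44C6) is that background alone. The labels give the 44JN and 44J lines the same genotype string, so their difference rests on the titles, and how the added genes are driven is not said. All cells, NanogKO included, were untreated, grown in serum with leukaemia inhibitory factor, and sorted for the surface protein PECAM and against PDGFRA, a receptor of primitive endoderm, before RNA was taken. With 1 line per group, an effect of an added gene and a difference between lines cannot be told apart. Nothing in the labels makes the 3 libraries of a line separate cultures, and the p-values cover the spread between libraries, which may be technical.

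Mitochondria keep their own ribosome, which makes the few respiratory chain subunits that the mitochondrial genome encodes. Its ribosomal RNA comes from that genome, while all of its proteins are encoded in the nucleus, made in the cytosol and imported. Many have a bacterial relative and the others are specific to mitochondria. ESRRB, an orphan nuclear receptor of the pluripotency network, belongs to the family of oestrogen-related receptors, whose other members are known regulators of genes for mitochondrial proteins.

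Expression is given in CPM, the usual unit of read counts scaled to a library of fixed size, taken over tested genes and adjusted by the trimmed mean of M values (TMM). Nanog followed the titles, with 222, 289.5 and 333 CPM in NanogKO:Esrrb:Nanog, 29.7, 35.1 and 30.4 CPM in NanogKO:Esrrb, and 14.3, 14.3 and 16 CPM in NanogKO. Esrrb had 1113, 1151 and 1056 CPM in NanogKO:Esrrb:Nanog, 769, 949 and 692 CPM in NanogKO:Esrrb, and 273, 253 and 303 CPM in NanogKO. Libraries held from 21808120 to 32496267 reads in genes. In principal components of all tested genes, the first component held 71.4% of the variance and set NanogKO apart, and the second held 11.7%. Every ES cell marker looked at (Pou5f1, Sox2, Zfp42, Utf1, Tdgf1 and Pecam1) was present in every library, with summed levels of 3034 to 3217 CPM in NanogKO:Esrrb:Nanog, 3268 to 3332 CPM in NanogKO:Esrrb and 2401 to 2605 CPM in NanogKO. NanogKO replicate 2 stood apart in markers of other cells. The 7 trophoblast markers summed to 29.35 to 36.76 CPM in NanogKO:Esrrb:Nanog and 21.86 to 26.46 CPM in NanogKO:Esrrb, against 55.24, 196.8 and 88.75 CPM in NanogKO. The 7 fibroblast markers summed to 7.569 to 14.08 CPM in NanogKO:Esrrb:Nanog and 7.338 to 13.78 CPM in NanogKO:Esrrb, against 13.72, 83.39 and 25.42 CPM in NanogKO, and Postn was at 0 in 7 of the 9 libraries. The 7 primitive endoderm markers were highest in NanogKO:Esrrb, at 27.47 to 62.91 CPM, against 13.85 to 22.24 CPM in NanogKO:Esrrb:Nanog and 11.54 to 35.9 CPM in NanogKO. The sums hide single markers that went the other way. In NanogKO:Esrrb against NanogKO, 1 of 4 tested fibroblast markers was higher and 3 were lower. Of 6 tested markers per set, 3 were higher and 1 lower for primitive endoderm and likewise for ES cells. For trophoblast, 0 of 6 were higher and 5 lower. Whether the sums reflect other cells, and what part such cells have in the results, was not tested. In bulk RNA fewer cells of a type and less RNA per cell cannot be told apart.

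The promoters of the members were read because most members that changed moved the same way. A promoter here is 250 bases before to 50 bases after an annotated start, from RefSeq on GRCm38.p6, and 68 members had 74 such entries. Mrpl4, Mrpl13, Mrpl15, Mrpl19, Mrpl38, Mrpl54, Mrps28, Mrps34 and Mrps35 had none. Both strands were searched for 4 motifs of factors known to act on nuclear genes for mitochondrial proteins. The motif of oestrogen-related receptors, TNAAGGTCA, was in 0 of the 74 promoters and in 1.28% of all 32851 mouse promoters. With so low a share in all promoters, 0 in a set of this size is not unusual. A search for exact letters in so short a stretch can also miss sites. The core of nuclear respiratory factor NRF1, GCGCANGCG, was in 16 (21.6%), against 6.25% of all promoters. The ETS motif bound by GABPA, CCGGAAGT, was in 12 (16.2%), against 3.89%, and the YY1 motif, AAGATGGCG, was in 8 (10.8%), against 1.40%. The background holds promoters of genes expressed here or not, whereas every member passed the low-count filter. The members were not compared with promoters of tested genes alone, so these excesses cannot be read as particular to the family. An NRF1 match can share its outer letters GCG with a YY1 match. The 4 promoters below show one example of each motif found and a second YY1 match, in Mrps24, the member with the largest fall. The match is in capitals and is the only match in its window: CCGGAAGT read on the other strand in Mrpl52 (chr14:54426659-54426958, plus strand), GCGCANGCG on the other strand in Mrps21 (chr3:95871465-95871764, minus strand), AAGATGGCG on the other strand in Mrps11 (chr7:78782881-78783180, plus strand), and AAGATGGCG as written in Mrps24 (chr11:5707652-5707951, minus strand). Each sequence runs along the gene's own strand.
Mrpl52: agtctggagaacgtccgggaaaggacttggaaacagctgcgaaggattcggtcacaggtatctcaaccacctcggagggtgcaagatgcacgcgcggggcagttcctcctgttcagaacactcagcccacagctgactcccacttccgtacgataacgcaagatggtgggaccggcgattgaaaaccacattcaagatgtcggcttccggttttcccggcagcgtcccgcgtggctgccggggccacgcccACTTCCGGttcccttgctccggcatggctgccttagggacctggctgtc
Mrps21: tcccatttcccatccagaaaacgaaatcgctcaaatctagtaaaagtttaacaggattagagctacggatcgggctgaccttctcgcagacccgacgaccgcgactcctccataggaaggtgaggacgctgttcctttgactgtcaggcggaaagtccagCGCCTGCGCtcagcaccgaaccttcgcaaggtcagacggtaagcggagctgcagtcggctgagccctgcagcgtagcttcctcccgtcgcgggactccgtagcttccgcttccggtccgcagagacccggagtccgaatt
Mrps11: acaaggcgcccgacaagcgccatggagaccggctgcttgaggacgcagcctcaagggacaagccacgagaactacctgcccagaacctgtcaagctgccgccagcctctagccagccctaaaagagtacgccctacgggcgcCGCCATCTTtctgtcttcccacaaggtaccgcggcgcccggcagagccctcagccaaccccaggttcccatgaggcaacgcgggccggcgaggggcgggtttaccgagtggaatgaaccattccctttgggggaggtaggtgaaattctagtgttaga
Mrps24: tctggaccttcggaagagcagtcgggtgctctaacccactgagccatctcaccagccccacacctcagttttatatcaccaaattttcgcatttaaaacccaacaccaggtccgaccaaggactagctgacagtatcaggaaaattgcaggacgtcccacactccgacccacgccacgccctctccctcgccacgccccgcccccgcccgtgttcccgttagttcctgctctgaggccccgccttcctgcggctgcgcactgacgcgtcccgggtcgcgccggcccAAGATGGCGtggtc
Matches were also counted by the calls described next. NRF1 matches were in 9 of 40 promoters (22.5%) of members that were higher in NanogKO:Esrrb than in NanogKO and in 7 of 31 (22.6%) of those not called. ETS matches were in 7 (17.5%) and 5 (16.1%) of the same promoters, and YY1 matches in 2 (5.0%) and 5 (16.1%). A match is a stretch of letters and does not show that a factor binds there.

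The members differed widely in level. In CPM per kilobase of exon, averaged over the 9 libraries, Mrpl genes ran from 1.69 to 102 with a median of 21.6, and Mrps genes from 4.12 to 45.8 with a median of 14.1. The highest was Mrpl2 at 102, whose protein lies near the catalytic centre of the large subunit, followed by Mrpl34 at 80.8. The lowest Mrpl genes were Mrpl48 at 1.69 and Mrpl23 at 1.84. Mrpl23 encodes a protein of the exit tunnel rim. Among Mrps genes, Mrps21 at 45.8 and Mrps23 at 45.8 were the highest on this scale, and Mrps33 at 4.12 and Mrps25 at 5.26 the lowest. Length here is that of all annotated exons together, so genes with long rarely used exons are given too low a level. Mrpl23, Mrpl48 and Mrps36 have annotated pseudogene copies, and how reads were divided between copies is not known.

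In NanogKO:Esrrb against NanogKO, 38 of the 77 members were higher and 3 were lower, and the other 36 were not called. The background was equal in both directions, since 24.2% of all tested genes were higher and 24.2% were lower. Of the members, 49.4% were higher and 3.90% lower. The Mrpl genes split into 23 higher and 1 lower of 48, with a median log2 fold change of 0.18, and the Mrps genes into 15 higher and 2 lower of 29, with a median of 0.20, where the median of all tested genes was 0.01. The libraries of the groups did not overlap for any of the 41 members called, which held for 98.1% of all called genes too. Of all 77 members 66.2% had no overlap, against 58.4% of all tested genes. The changes were small: 26 of the higher members passed 1.2-fold, 2 passed 1.5-fold and none passed 2-fold, whereas 16% of all tested genes were called with a change past 2-fold. The fold changes of the members ran from -0.60 to 0.74 on the log2 scale, and 63 were above 0. Leaving out any NanogKO library lowered the count: 27, 27 and 26 members were higher without NanogKO replicate 1, 2 and 3 in turn. Of these 10, 8 and 10 were Mrps genes, in place of 15, and 17, 19 and 16 were Mrpl genes, in place of 23. NanogKO replicate 2 had the highest trophoblast and fibroblast marker sums. Of these fits, the one without it had the lowest Mrps count and the highest Mrpl count. Without NanogKO:Esrrb replicate 1, 2 and 3 in turn, 28, 33 and 39 members were higher. How many of all tested genes were called in these fits is not given here, so a drop cannot be read as particular to the members.

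**Figure D1:**
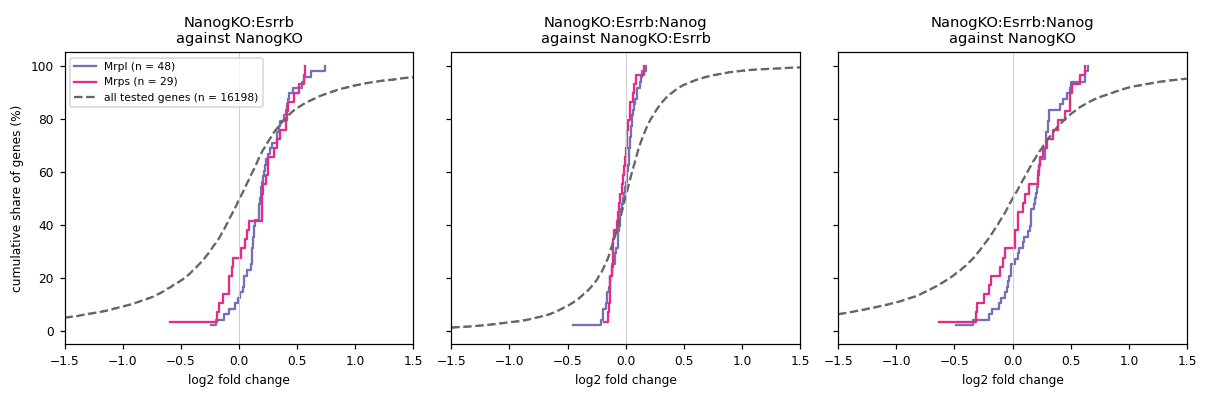
Cumulative share of genes (%) by log2 fold change in the 3 comparisons, for Mrpl genes, Mrps genes and all tested genes; the axis is cut at 1.5 on either side, which some tested genes exceed. In NanogKO:Esrrb against NanogKO and in NanogKO:Esrrb:Nanog against NanogKO the member curves lie right of the curve of all genes around 0, with medians of 0.18 and 0.20 for Mrpl and 0.20 and 0.11 for Mrps, and they are narrower at both ends.

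Summed over the members, NanogKO:Esrrb:Nanog libraries held 3889, 4236 and 4204 CPM, NanogKO:Esrrb libraries 4268, 4328 and 4102 CPM, and NanogKO libraries 3778, 3696 and 3754 CPM. Every library of the lines with added Esrrb was above every NanogKO library. The NanogKO libraries lay close together, while NanogKO:Esrrb:Nanog replicate 1 and NanogKO:Esrrb replicate 3 were lower than the other libraries of their lines. The Mrpl genes summed to 2607, 2856 and 2834 CPM in NanogKO:Esrrb:Nanog, 2860, 2919 and 2734 CPM in NanogKO:Esrrb, and 2472, 2421 and 2450 CPM in NanogKO, with no overlap between the lines with added Esrrb and NanogKO. The Mrps genes summed to 1281, 1380 and 1369 CPM in NanogKO:Esrrb:Nanog, 1408, 1409 and 1369 CPM in NanogKO:Esrrb, and 1306, 1275 and 1304 CPM in NanogKO. Here NanogKO:Esrrb:Nanog replicate 1 lay within the NanogKO libraries.

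**Figure D2:**
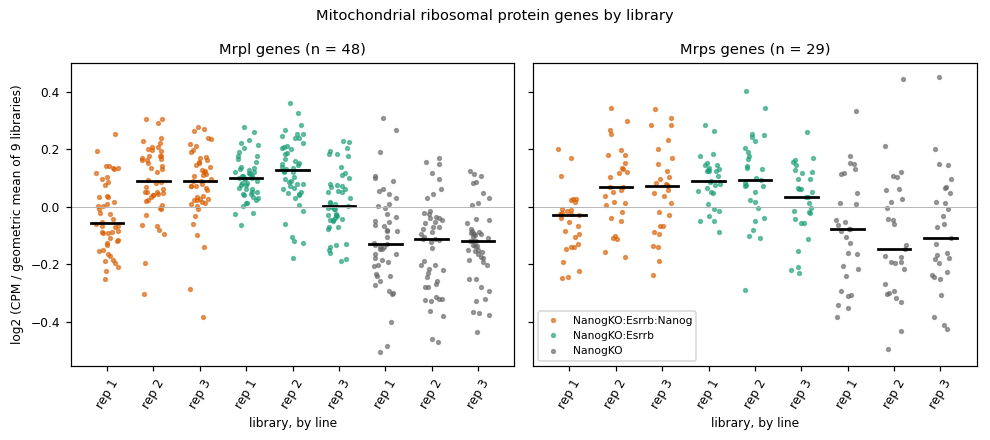
Each point is 1 Mrpl gene (left) or Mrps gene (right) in 1 library, as log2 of its CPM over its geometric mean in the 9 libraries, and bars are medians over the genes of a library. The medians of the NanogKO libraries lie between -0.15 and -0.08 in both panels, and those of NanogKO:Esrrb:Nanog replicate 1, at -0.06 and -0.03, are the lowest of the other lines.

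The large subunit gene with the greatest rise was Mrpl21, which encodes a relative of a bacterial large-subunit protein (chromosome 19, 3282901 to 3292837, mm10). Mrpl21 had 86, 87.8 and 94.3 CPM in NanogKO:Esrrb:Nanog, 95.2, 98.5 and 92 CPM in NanogKO:Esrrb, and 56.1, 56.6 and 58.1 CPM in NanogKO. The libraries of both lines with added Esrrb lay far above those of NanogKO, and overlap was absent. Its fold change was 1.67 in NanogKO:Esrrb against NanogKO (log2 0.74 ± 0.06 SE, adjusted p = 2.11e-06). Mrpl21 shares its start region with Ighmbp2 on the other strand, 116 bases away, which was also higher (log2 0.79, adjusted p = 1.46e-05). The exons of the pair overlap over 5.82% of those of Mrpl21, and without strand in the counting the reads of that stretch cannot be told apart.

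Mrpl18, whose bacterial relative sits in the central protuberance of the large subunit, had 71.7, 81.8 and 76.5 CPM in NanogKO:Esrrb:Nanog, 72.6, 85 and 71.3 CPM in NanogKO:Esrrb, and 50.1, 48.1 and 51 CPM in NanogKO. NanogKO:Esrrb replicate 2 was the highest library, and all 6 libraries with added Esrrb were above all 3 of NanogKO. The log2 fold change over NanogKO was 0.62 ± 0.08 (SE, adjusted p = 6.7e-05). Mrpl18 shares 10.1% of its exon bases with Tcp1 on the other strand, which had 159938 reads in all against 16674 for Mrpl18. Tcp1 was not called in NanogKO:Esrrb against NanogKO (log2 -0.09, adjusted p = 0.263). Mrpl52, a mitochondria-specific protein whose promoter with an ETS match is printed above, had 20.7, 22.9 and 22.6 CPM in NanogKO:Esrrb:Nanog, 21.8, 21.9 and 19.4 CPM in NanogKO:Esrrb, and 13.2, 15.1 and 14.6 CPM in NanogKO. It too had no overlap with NanogKO, and its log2 fold change was 0.56 ± 0.09 (adjusted p = 0.000364). Mrpl9, another relative of a bacterial protein, had 67.9, 70.8 and 64.9 CPM in NanogKO:Esrrb:Nanog, 72.5, 68.4 and 72.3 CPM in NanogKO:Esrrb, and 50.2, 47.5 and 49.2 CPM in NanogKO. Its libraries were tight within each line, and the log2 fold change was 0.54 ± 0.06 (adjusted p = 2.58e-05). The calls of Mrpl21, Mrpl18, Mrpl52 and Mrpl9 held in each of the 17 alternative analyses, including a test that asks for more than a 1.2-fold change.

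**Figure D3:**
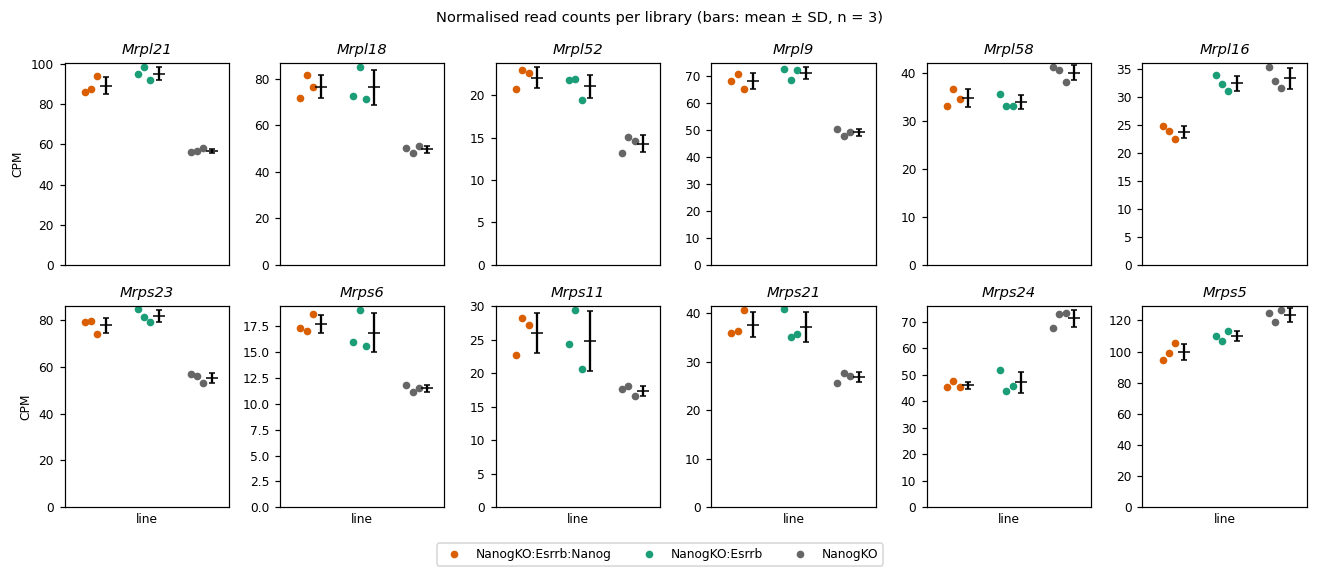
CPM of 12 members in each library, with the mean and SD of the 3 libraries of a line beside the points, each axis starting at 0. Mrpl21, Mrpl18, Mrpl52, Mrpl9, Mrps23, Mrps6, Mrps11 and Mrps21 are higher in both lines with added Esrrb than in NanogKO, Mrps24, Mrps5 and Mrpl58 are lower, and Mrpl16 is lower in NanogKO:Esrrb:Nanog alone of the 3 lines.

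At the stalk and the exit tunnel of the large subunit, some members were called and others were not. The log2 fold changes of all of them in NanogKO:Esrrb against NanogKO were above 0. In the stalk that recruits translation factors, Mrpl10, the stalk base protein, averaged 82.8 ± 2.43 CPM in NanogKO:Esrrb:Nanog, 75.7 ± 1.93 CPM in NanogKO:Esrrb and 67 ± 3.75 CPM in NanogKO (SD, n = 3 each). It was called higher in NanogKO:Esrrb (log2 0.18 ± 0.06, adjusted p = 0.0305), a call that 7 of 17 alternatives kept, and not for example without NanogKO replicate 1 or 3. Mrpl11 and Mrpl12, the other members of the stalk and its base, were not called, with log2 fold changes of 0.17 ± 0.07 and 0.13 ± 0.10 and adjusted p of 0.074 and 0.328. Of 5 members at the exit tunnel, where the new chain leaves towards the inner membrane, 3 were higher. Mrpl45, which anchors the ribosome to that membrane, averaged 115 ± 8.39 CPM in NanogKO:Esrrb:Nanog, 132 ± 1.88 CPM in NanogKO:Esrrb and 99.4 ± 4.17 CPM in NanogKO and was the clearest of them (log2 0.41 ± 0.06, adjusted p = 0.00028). Mrpl47 and Mrpl22 were also higher, at 0.29 and 0.27 on the log2 scale, while Mrpl23 (0.11) and Mrpl24 (0.11) were not called.

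The small subunit genes that rose most were Mrps23, Mrps6, Mrps11 and Mrps21. Mrps23, a mitochondria-specific protein, had 79, 79.6 and 74 CPM in NanogKO:Esrrb:Nanog, 84.3, 80.9 and 79.1 CPM in NanogKO:Esrrb, and 56.7, 55.8 and 52.9 CPM in NanogKO. No library of NanogKO reached the others, and the log2 fold change was 0.56 ± 0.06 (adjusted p = 1.68e-05). Mrps6, a relative of a bacterial protein, had 17.3, 17 and 18.6 CPM in NanogKO:Esrrb:Nanog, 16, 19 and 15.6 CPM in NanogKO:Esrrb, and 11.8, 11.1 and 11.5 CPM in NanogKO. Its libraries with added Esrrb all lay above NanogKO, at a log2 fold change of 0.56 ± 0.10 (adjusted p = 0.000759), and 10.4% of its exon bases are shared with Slc5a3 on the same strand.

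Mrps11, a protein of the small subunit platform, had 22.7, 28.3 and 27.1 CPM in NanogKO:Esrrb:Nanog, 24.3, 29.4 and 20.6 CPM in NanogKO:Esrrb, and 17.6, 18 and 16.6 CPM in NanogKO. NanogKO:Esrrb replicate 3, the lowest of its line, was still above every NanogKO library, and the spread of the other 2 was wide. Its log2 fold change was 0.51 ± 0.13 (adjusted p = 0.00569). Mrps11 and Mrpl46 are neighbours that start 412 bases apart on opposite strands, and Mrpl46 was also higher (log2 0.34 ± 0.08, adjusted p = 0.00398). They share 7.97% of the exon bases of Mrps11, and the Mrps11 promoter printed above lies at this joint start region. Mrps21, whose promoter above holds the NRF1 core, had 36, 36.3 and 40.7 CPM in NanogKO:Esrrb:Nanog, 40.7, 35.1 and 35.7 CPM in NanogKO:Esrrb, and 25.6, 27.7 and 27 CPM in NanogKO. The groups did not overlap, and the log2 fold change was 0.47 ± 0.08 (adjusted p = 0.000648). The calls of Mrps23, Mrps6, Mrps11 and Mrps21 held in all 17 alternatives.

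The paralogues of one bacterial protein, Mrps18a, Mrps18b and Mrps18c, parted. Mrps18b averaged 52.9 ± 4.15 CPM in NanogKO:Esrrb:Nanog, 55.5 ± 2.71 CPM in NanogKO:Esrrb and 41.6 ± 1.22 CPM in NanogKO, and Mrps18c averaged 16.7 ± 0.899 CPM in NanogKO:Esrrb:Nanog, 18 ± 1.21 CPM in NanogKO:Esrrb and 13.6 ± 0.919 CPM in NanogKO. Both proteins belong to the small subunit, and both genes were higher in NanogKO:Esrrb, at log2 0.41 ± 0.07 (adjusted p = 0.000658) and 0.40 ± 0.09 (adjusted p = 0.00379). Mrps18a, whose protein sits in the large subunit despite its name, averaged 41.4 ± 1.07 CPM in NanogKO:Esrrb:Nanog, 42.8 ± 1.61 CPM in NanogKO:Esrrb and 44.5 ± 1.45 CPM in NanogKO and was not called (log2 -0.06 ± 0.06, adjusted p = 0.482). Mrps30, the other Mrps gene with a large-subunit protein, was not called either (log2 0.05 ± 0.06, adjusted p = 0.549). Mrps36, now known as a part of the 2-oxoglutarate dehydrogenase complex and not of the ribosome, averaged 7.46 ± 0.414 CPM in NanogKO:Esrrb:Nanog, 7.46 ± 1.25 CPM in NanogKO:Esrrb and 6.35 ± 0.634 CPM in NanogKO and was not called (log2 0.23 ± 0.15, adjusted p = 0.207). Since Mrps36 was not called in any comparison, leaving it out could change no count of calls.

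Mrps24 went against most of its family. This protein lines the entry of the mRNA channel, and the gene lies at chromosome 11, 5703983 to 5715680 (mm10). Mrps24 had 45.3, 47.5 and 45.5 CPM in NanogKO:Esrrb:Nanog, 51.8, 43.9 and 45.8 CPM in NanogKO:Esrrb, and 67.6, 72.9 and 73.4 CPM in NanogKO. All NanogKO libraries were above all others, with a wide gap, and the lines with added Esrrb overlapped each other. The log2 fold change was -0.60 ± 0.07 in NanogKO:Esrrb against NanogKO (adjusted p = 4.81e-05), a call kept in all 17 alternatives. Mrps24 shares 15.4% of its exon bases with Urgcp on the same strand. Its promoter, printed above, was 1 of 3 from members that fell, and the only one of the 3 with a match to any of the motifs.

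The other members that fell in NanogKO:Esrrb were Mrps5 and Mrpl58. Mrps5, which also lies on the mRNA path, had 94.7, 99.1 and 105 CPM in NanogKO:Esrrb:Nanog, 109.8, 107 and 113 CPM in NanogKO:Esrrb, and 125, 119 and 127 CPM in NanogKO. The 3 lines did not overlap, with NanogKO highest and NanogKO:Esrrb:Nanog lowest, and the log2 fold change was -0.17 ± 0.06 (adjusted p = 0.0343). That call was lost without NanogKO replicate 3, NanogKO:Esrrb replicate 1 or 2 or NanogKO:Esrrb:Nanog replicate 2, with adjusted p of up to 0.106. Mrpl58, a release-factor-like protein that frees stalled chains and is also built into the large subunit, had 33, 36.7 and 34.6 CPM in NanogKO:Esrrb:Nanog, 35.6, 33.1 and 33 CPM in NanogKO:Esrrb, and 41.2, 40.6 and 38.2 CPM in NanogKO. NanogKO libraries were above all others by a small margin, and the log2 fold change was -0.24 ± 0.07 (adjusted p = 0.0151). The third gene of the decoding centre and mRNA path, Mrps12, a protein that checks codon pairing, went the other way with 42.4, 51.1 and 52.6 CPM in NanogKO:Esrrb:Nanog, 45.9, 49.4 and 35.9 CPM in NanogKO:Esrrb, and 33.6, 33.9 and 35.1 CPM in NanogKO. Its libraries did not overlap those of NanogKO, but the call (log2 0.36 ± 0.12, adjusted p = 0.0231) was lost without any 1 NanogKO library or without NanogKO:Esrrb replicate 1 or 2, with adjusted p of 0.063 to 0.0904.

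The members were also counted by descent and by position. Of 46 conserved members, 25 were higher and 2 lower, with a median log2 fold change of 0.20, and of 30 mitochondria-specific members 13 were higher and 1 lower, with a median of 0.17. Counted by where the protein sits, 23 of 50 large-subunit members and 15 of 26 small-subunit members were higher. The difference between these classes was not tested.

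**Figure D4:**
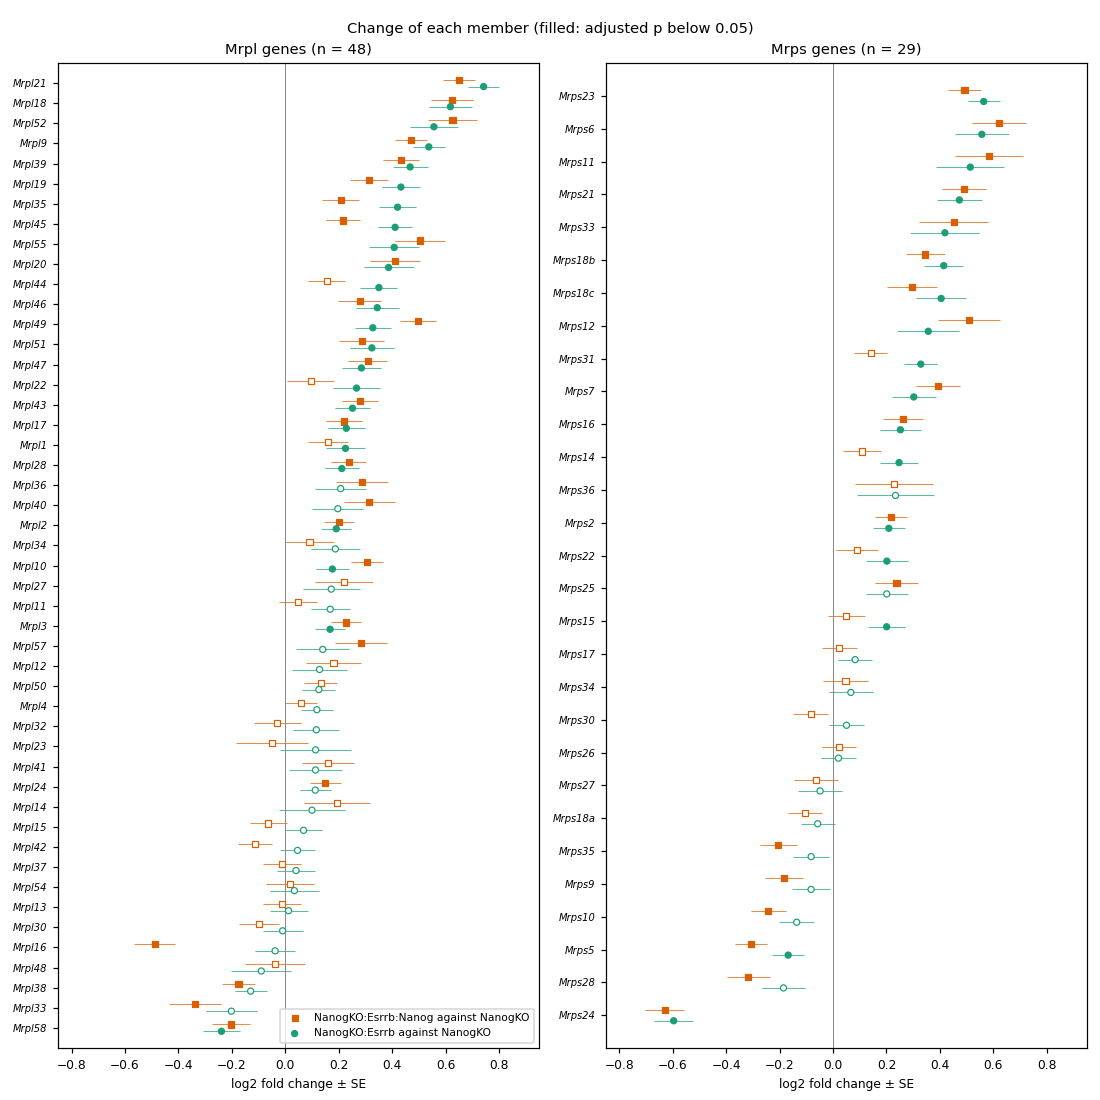
Log2 fold change ± SE of each of the 48 Mrpl and 29 Mrps genes in NanogKO:Esrrb:Nanog against NanogKO and in NanogKO:Esrrb against NanogKO, ordered by the change in NanogKO:Esrrb, with filled symbols where the adjusted p was below 0.05. Most points lie right of 0, led by Mrpl21 and Mrps23, Mrps24 lies far left in both comparisons, and Mrpl16 is left in NanogKO:Esrrb:Nanog but at -0.04 in NanogKO:Esrrb.

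NanogKO:Esrrb:Nanog was then set against NanogKO:Esrrb, from which it differs by added Nanog according to the titles. Esrrb, with the values given above, was also higher in every NanogKO:Esrrb:Nanog library than in any NanogKO:Esrrb library. Added Nanog and a higher level of Esrrb therefore cannot be told apart here. Of the 77 members 0 were higher and 1, Mrpl16, was lower, where 5.43% of all tested genes were higher and 7.75% were lower. With DESeq2 the counts were likewise 0 and 1, and 9 members had an unadjusted p below 0.05 with edgeR. The median log2 fold change was -0.02 for Mrpl and -0.05 for Mrps genes, and both were above 0 (0.04 and 0.02) when libraries were scaled by their totals alone, a scaling that moved the median of all tested genes to 0.06 and called Mrpl49 higher (1 higher and 1 lower).

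Mrpl16, whose bacterial relative lies beside the site where aminoacyl-tRNA enters (chromosome 19, 11770391 to 11774960, mm10), had 24.8, 23.9 and 22.6 CPM in NanogKO:Esrrb:Nanog, 34, 32.3 and 31.2 CPM in NanogKO:Esrrb, and 35.5, 32.9 and 31.8 CPM in NanogKO. The NanogKO:Esrrb:Nanog libraries lay below the 6 others, and NanogKO:Esrrb and NanogKO overlapped. The log2 fold change was -0.45 ± 0.08 in NanogKO:Esrrb:Nanog against NanogKO:Esrrb (adjusted p = 0.00278) and -0.49 ± 0.08 against NanogKO (adjusted p = 0.000211), while NanogKO:Esrrb against NanogKO gave -0.04 ± 0.07 (adjusted p = 0.704). The first of these calls held in 16 of 17 alternatives and missed the threshold in the test for more than a 1.2-fold change, at an adjusted p of 0.0642. Members nearest to a call in this comparison were Mrpl35 (log2 -0.21 ± 0.07, adjusted p = 0.0644), Mrpl45 (-0.20 ± 0.06, 0.0654) and Mrps31 (-0.19 ± 0.06, 0.0657), all below 0, picked after their values were seen.

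In NanogKO:Esrrb:Nanog against NanogKO, 36 members were higher and 10 lower, against 27.2% of all tested genes higher and 27.2% lower. The members' shares were 46.8% and 13.0%. Among the 9890 tested genes with a mean level no lower than that of the lowest member, 30.6% were higher and 28.7% lower. The Mrpl genes split into 24 higher and 4 lower of 48 (median log2 fold change 0.20) and the Mrps genes into 12 higher and 6 lower of 29 (median 0.11), with a median of 0.00 over all tested genes. The libraries of the groups did not overlap for the 46 members called, nor for 97.7% of all called genes, and 68.8% of the 77 members had no overlap, against 61.9% of all tested genes. None of the called members passed 2-fold, whereas 18.5% of all tested genes were called past it. This comparison shares its NanogKO libraries with the first, so its calls are no separate evidence: 20 Mrpl and 11 Mrps genes were higher in both, and Mrps24, Mrps5 and Mrpl58 were lower in both. Without NanogKO:Esrrb:Nanog replicate 2 the Mrpl genes called higher numbered 15, and without NanogKO:Esrrb:Nanog replicate 3 the members called lower numbered 6. The calls among all tested genes in these fits are not given here.

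The largest rises were again in Mrpl21 (log2 0.65 ± 0.06, adjusted p = 3.68e-06), Mrpl52 (0.63 ± 0.09, 0.000122), Mrpl18 (0.62 ± 0.08, 4.79e-05) and, among small subunit genes, Mrps6 (0.62 ± 0.10, 0.000283) and Mrps11 (0.58 ± 0.13, 0.00227). Mrpl55, grouped here with the large-subunit proteins that have a bacterial relative, had 26, 23.9 and 25.3 CPM in NanogKO:Esrrb:Nanog, 23.7, 26 and 20.7 CPM in NanogKO:Esrrb, and 17.7, 18.6 and 16.9 CPM in NanogKO. Its NanogKO libraries were the lowest, and the log2 fold change was 0.50 ± 0.09 (adjusted p = 0.000794). For Mrps12, with the values given above, the log2 fold change was 0.51 ± 0.12 (adjusted p = 0.00281), and this call held in all 17 alternatives.

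Besides Mrps24 and Mrpl16, the members that were lowest relative to NanogKO were Mrpl33, Mrps28, Mrps5 and Mrps10. Mrpl33, a relative of a bacterial protein, had 16.1, 15.4 and 16 CPM in NanogKO:Esrrb:Nanog, 18.9, 15.6 and 17.8 CPM in NanogKO:Esrrb, and 21.9, 19.2 and 19.1 CPM in NanogKO. NanogKO:Esrrb lay between the other lines and overlapped NanogKO:Esrrb:Nanog, and the log2 fold change of NanogKO:Esrrb:Nanog over NanogKO was -0.34 ± 0.10 (adjusted p = 0.0112). Mrps28 averaged 28.9 ± 1.69 CPM in NanogKO:Esrrb:Nanog, 31.7 ± 2.59 CPM in NanogKO:Esrrb and 36.1 ± 0.921 CPM in NanogKO, with a log2 fold change of -0.32 ± 0.08 (adjusted p = 0.0054). Mrps5 was at -0.31 ± 0.06 (adjusted p = 0.000997). Mrps10 averaged 44.6 ± 2.11 CPM in NanogKO:Esrrb:Nanog, 48 ± 2.74 CPM in NanogKO:Esrrb and 52.7 ± 0.572 CPM in NanogKO, at -0.24 ± 0.07 (adjusted p = 0.00895). These 4 calls held in all alternatives but the test for more than a 1.2-fold change. Mrpl58 (-0.20 ± 0.07, 0.0301) and Mrpl38 (-0.18 ± 0.06, 0.0272) were less settled, each kept in 10 of 17 alternatives and lost without NanogKO replicate 2 or NanogKO:Esrrb:Nanog replicate 3, among others, with adjusted p of 0.0701 to 0.0862 in these. Mrps35 (-0.20) and Mrps9 (-0.19) complete the 10. Mrpl45 was higher (log2 0.21 ± 0.06, adjusted p = 0.0139), a call lost without NanogKO replicate 2 or NanogKO:Esrrb:Nanog replicate 2 or 3, at adjusted p of 0.0546 to 0.063.

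Calls were unevenly spread over gene length. The 38 members with exons shorter in sum than 2533 bases held 23 of the higher calls and 1 of the lower calls in NanogKO:Esrrb against NanogKO, with a median log2 fold change of 0.24, and the 39 longer ones held 15 and 2, with a median of 0.12. In NanogKO:Esrrb:Nanog against NanogKO the shorter members held 23 higher and 2 lower calls and the longer ones 13 and 8. Spearman's rho of log2 fold change with exon length was -0.37 and -0.44 across the 77 members in these comparisons, and -0.14 and -0.11 across 16173 tested genes with a length. In NanogKO:Esrrb:Nanog against NanogKO:Esrrb it was -0.35 across the members and 0.03 across all. These are descriptions across genes of the same 9 libraries, and what part length or RNA quality has in the changes was not tested.

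Many members share their start region with another gene. Of the 77, 33 have a coding gene that starts within 1000 bases on the other strand, and for 31 of these the partner could be tested. They form 30 distinct pairs, since Mrpl46 and Mrps11 are each other's partner and were counted from both sides. In NanogKO:Esrrb against NanogKO, 15 of these members were higher, and their partners were higher in 8 cases (7 distinct pairs), lower in 0 and not called in 7. Of all tested genes 24.2% were higher and 24.2% were lower. Where the member was not called, also in 15 cases, the partners were higher in 5, lower in 2 and not called in 8. In NanogKO:Esrrb:Nanog against NanogKO, 17 of these members were higher, and their partners were higher in 8 cases (7 distinct pairs), lower in 2 and not called in 7. In that comparison 27.2% of all tested genes were higher and 27.2% were lower. In NanogKO:Esrrb against NanogKO the partners that rose with a member included Ndufb5, a respiratory chain gene 615 bases from Mrpl47 (log2 0.32). Mrpl47 shares 13.9% of its exon bases with Ndufb5. Sars2, a mitochondrial tRNA synthetase gene 172 bases from Mrps12, rose too (log2 0.26). The others were Lrrc46, Klc4, Ighmbp2, Ppp1r10 and the pair Mrpl46 and Mrps11. The respiratory chain gene Ndufs6, beside Mrpl36 (log2 -0.12), and the mitochondrial genome maintenance gene Twnk, beside Mrpl43 (log2 -0.09), were not called. Exons of 22 members overlap those of another coding gene, and in Mrps25, Mrps34, Mrpl19, Mrpl43 and Mrpl24 over 20% of exon bases do, up to 69.8% in Mrps25 (with Nr2c2). Strand in the authors' counting is not given, so levels of these members are uncertain.

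The rest of the mitochondrial translation system was read against the same background of 24.2% of all tested genes in each direction. Of 6 ribosomal proteins under other symbols, Gadd45gip1 was higher in NanogKO:Esrrb than in NanogKO (log2 0.38 ± 0.12, adjusted p = 0.0238), and Chchd1 (-0.39 ± 0.09, 0.00299) and the GTP-binding small-subunit protein Dap3 (-0.18 ± 0.05, 0.00961) were lower. Of 25 genes for ribosome assembly, 6 (24.0%) were higher and 2 (8.0%) lower, so the share of higher genes was at the background. The rRNA methyltransferase genes Mrm3 (17.3 ± 0.747 CPM in NanogKO:Esrrb:Nanog, 14.7 ± 0.660 CPM in NanogKO:Esrrb and 9.14 ± 0.379 CPM in NanogKO) and Mrm2 rose, at log2 0.68 ± 0.09 and 0.65 ± 0.09, as did Rbfa (0.64 ± 0.09), a factor of small-subunit assembly, while Gtpbp10, a GTPase of large-subunit assembly, fell (-0.49 ± 0.11). Of 13 tested translation factors 3 (23.1%) were higher and 2 (15.4%) lower, also no more than the background. Guf1, the relative of the bacterial elongation factor LepA, averaged 29.9 ± 4.59 CPM in NanogKO:Esrrb and 50.3 ± 4.03 CPM in NanogKO (log2 -0.75 ± 0.11), the ribosome recycling factor gene Mrrf was lower as well (-0.38 ± 0.09), and the elongation factor gene Tufm was higher (0.30 ± 0.08). Of 20 genes for mitochondrial tRNA charging 8 (40.0%) were higher and 3 (15%) lower, with Tars2 (0.68 ± 0.05), Aars2 (0.60 ± 0.07) and Cars2 (0.52 ± 0.08) at the smallest adjusted p. The adjusted p of those named from Mrm3 to Cars2 were at or below 0.00947.

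Of 9 genes for mitochondrial transcription and genome upkeep, 1 was higher and 3 were lower. The RNA polymerase gene Polrmt was higher (log2 0.29 ± 0.07, adjusted p = 0.00644), and the DNA polymerase gene Polg (-0.29 ± 0.06, 0.00298) and its accessory subunit Polg2 (-0.50 ± 0.11, 0.00319) were lower. Of 15 genes for import, chaperones and mitochondrial mass 7 were higher and 2 lower. Vdac1, a channel of the outer membrane (0.45 ± 0.08, adjusted p = 0.000784), and the chaperonin genes Hspe1 (0.31 ± 0.06, 0.00133) and Hspd1 (0.45 ± 0.10, 0.00276) were higher on the log2 scale. The genes for the import receptor Tomm20 (-0.32 ± 0.06, 0.00146) and the inner membrane translocase subunit Timm50 (-0.15 ± 0.06, 0.0405) were lower, and Cs, the citrate synthase gene, was not called (-0.10 ± 0.05, adjusted p = 0.14). Of the mitochondrially encoded genes 9 of 15 could be tested and 0 were called in this comparison, also 0 at an unadjusted p below 0.05, and mt-Rnr1 and mt-Rnr2, the RNAs of the mitochondrial ribosome, were at -0.18 ± 0.11 and -0.17 ± 0.09. DESeq2 called 0 of them as well. The other 6, among them mt-Co2 and mt-Co3, were at or near 0 in most libraries of this table, and ribosomal RNA had been depleted. In NanogKO:Esrrb:Nanog against NanogKO:Esrrb 4 of the 9 were lower, mt-Rnr2 at -0.43 ± 0.09 (adjusted p = 0.0108) and mt-Co1 at -0.54 ± 0.10 (0.00471) among them. Of all tested genes 7.75% were lower in that comparison. What part the depletion of ribosomal RNA has in the level of mt-Rnr2 was not tested.

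Next to other large families, the members lay, by their share of higher genes, between nuclear respiratory chain genes and cytosolic ribosomal protein genes. Of 90 respiratory chain genes, 56 (62.2%) were higher in NanogKO:Esrrb than in NanogKO and 3 (3.33%) were lower, with a median log2 fold change of 0.25. Of 83 cytosolic ribosomal protein genes, 5 (6.02%) were higher and 19 (22.9%) were lower, with a median of -0.08. In NanogKO:Esrrb:Nanog against NanogKO:Esrrb the cytosolic genes had 0 higher and 20 lower (24.1%), beside 0 and 1 of the 77 members. Of all tested genes 5.43% were higher and 7.75% were lower in that comparison. The cytosolic genes summed to 44380 to 46070 CPM in NanogKO:Esrrb:Nanog, 47680 to 51300 CPM in NanogKO:Esrrb and 51670 to 53970 CPM in NanogKO. These lists were compared by their counts and no test of the difference was run.

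**Figure D5:**
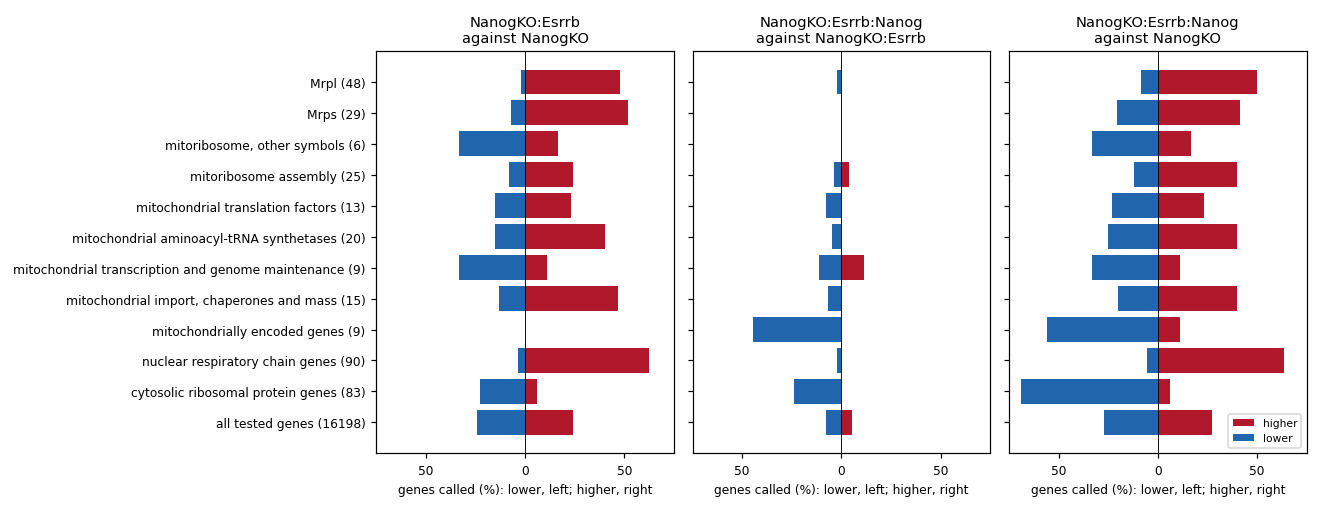
Share of genes (%) called higher (right of 0) and lower (left) in each list and comparison, with the number of tested genes in brackets. In NanogKO:Esrrb against NanogKO the Mrpl bar reaches 47.9% and the Mrps bar 51.7% on the right, against 24.2% of all tested genes, and in NanogKO:Esrrb:Nanog against NanogKO:Esrrb neither family has a gene on the right.

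Genes for known regulators of mitochondrial genes moved both ways. Gabpa, the ETS factor whose motif was searched above, had 216, 237 and 232 CPM in NanogKO:Esrrb:Nanog, 217, 229.9 and 223 CPM in NanogKO:Esrrb, and 172, 143 and 155 CPM in NanogKO. NanogKO was below the other lines in every library, and the log2 fold change of NanogKO:Esrrb over NanogKO was 0.51 ± 0.07 (adjusted p = 0.000126), while its partner Gabpb1 was lower (-0.28 ± 0.06, adjusted p = 0.00262). Esrra, a relative of Esrrb, was also lower (-0.40 ± 0.08, adjusted p = 0.00114), and Nrf1 (0.08 ± 0.05, adjusted p = 0.251) and Yy1 (0.08 ± 0.06, adjusted p = 0.245) were not called. Of the Myc genes, Mycn averaged 149.5 ± 20 CPM in NanogKO:Esrrb and 390.2 ± 6.31 CPM in NanogKO, a fall (log2 -1.38 ± 0.13, adjusted p = 5.45e-06), and Myc averaged 63.6 ± 15.8 CPM in NanogKO:Esrrb:Nanog, 99 ± 5.39 CPM in NanogKO:Esrrb and 67.8 ± 8.47 CPM in NanogKO, higher in NanogKO:Esrrb than in NanogKO (0.54 ± 0.15, adjusted p = 0.0101). What part these regulators have in the changes of the members was not tested.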

How the data were processed

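RNA from sorted mouse ES cells was sequenced in 9 libraries, 3 from each of 3 lines. Per the labels' protocols, total RNA was treated with DNase, depleted of ribosomal RNA and made into libraries with a NEBNext kit. Per the submitters' processing notes, bcl2fastq 2.19.1, STAR 2.5.3a and mm10 were used, with no role given for each. Which annotation was counted, with what settings and with or without strand, is not stated in any source used here. The authors deposited a table of raw read counts, whole numbers with an Ensembl ID per row. Of its columns, 9 carry the names of the samples, and 6 others were not used; 0 of the 9 were identical to another. Symbols, positions and exon lengths came from GENCODE M21 (mm10, also called GRCm38), which gave 52403 IDs a symbol.

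The test was edgeR 4.0.16's quasi-likelihood test, run in R 4.3.3. The default low-count filter kept 16198 genes, libraries were scaled by TMM, and a quasi-likelihood model with line as the only term was fitted to all 9 libraries. P-values of the 3 comparisons were adjusted by Benjamini-Hochberg over all 16198 genes, with calls at 0.05, and adjusted p-values come from it where no other tool is named. No pseudocount was added to CPM, and SD are over 3 libraries. A standard error is the size of the log2 fold change over the root of F. Principal components and the correlations between replicates used log2 CPM with a prior count of 2.

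The members, the gene lists and the rule for genes named were chosen with earlier results of these data known, so no list was tested as a set. The rule named, per comparison, subunit and direction, the 4 called members with the largest change and no overlap between groups, the 2 highest and 2 lowest levels per subunit, 12 members with a known role or misleading name, and from each list up to 3 genes with the smallest adjusted p in a comparison, and 33 members met it. Other genes named were chosen after their values were seen. Alternatives were median-of-ratios factors, library totals, DESeq2 1.42.0, 2 other low-count filters, a test against a 1.2-fold change, a block for the replicate number, a fit to the 2 lines alone, Mrps36 left out, and each library left out in turn.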

Additional observations from a re-analysis of the deposited data

How the results depend on the processing

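With libraries scaled by median-of-ratios factors, in the 2-group fit and in DESeq2, every count of higher and lower members stayed within 1.5 times its value. Mrps36 was left out without a new fit, and since it was not called in any comparison, no count could change. Library totals alone gave 5 lower members in NanogKO:Esrrb against NanogKO, and in NanogKO:Esrrb:Nanog against NanogKO:Esrrb 1 higher member and medians of 0.043 (Mrpl) and 0.016 (Mrps), both above 0. The filter at 5 CPM in 3 libraries gave 5 lower members in NanogKO:Esrrb against NanogKO, and no filter gave 6 lower members in NanogKO:Esrrb:Nanog against NanogKO. The test against a 1.2-fold change gave 13 higher and 1 lower in NanogKO:Esrrb against NanogKO, 0 lower in NanogKO:Esrrb:Nanog against NanogKO:Esrrb, and 12 higher and 2 lower in NanogKO:Esrrb:Nanog against NanogKO, since it asks for a larger change. The cause of the others was not tested. Leaving out each library in turn gave 26 to 39 higher and 2 to 4 lower members in NanogKO:Esrrb against NanogKO. It gave 0 and 1 in NanogKO:Esrrb:Nanog against NanogKO:Esrrb, and 25 to 39 and 6 to 10 in NanogKO:Esrrb:Nanog against NanogKO, the 6 without NanogKO:Esrrb:Nanog replicate 3. The share of all tested genes called in these fits is not given here. The medians ran from 0.151 to 0.227 (Mrpl) and 0.176 to 0.239 (Mrps), from -0.046 to 0.032 and -0.073 to -0.009, and from 0.174 to 0.223 and 0.073 to 0.148 in the same order of comparisons. Of the members called, 23 of 38 higher and 2 of 3 lower in NanogKO:Esrrb against NanogKO, and 23 of 36 and 6 of 10 in NanogKO:Esrrb:Nanog against NanogKO, were called in every alternative but the test against a 1.2-fold change. With the replicate number as a replicate block the counts were 37 higher and 3 lower, 0 and 1, and 35 and 10. Same-numbered libraries of different lines deviated with correlations of -0.02 to 0.28, other pairs with -0.33 to 0.22, and in 9 of 18 pairings of a library with another line the best correlated library had the same number. Between NanogKO:Esrrb:Nanog and NanogKO:Esrrb the same-numbered correlations were 0.16, 0.28 and -0.02. The numbers were not taken as pairing, since not every pair was above 0.1 and no label gives a number a shared batch or day. The titles also carry a running sample number that goes through the lines within each replicate number, and what it marks is not said. Whether same-numbered libraries share a batch was not tested. The median standard error of a member's log2 fold change was 0.073, and a member not called may still differ.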
